A study of Mus musculus with 15 samples.

Results

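Deletion of Ezh2 in cells with intact Setd2 was examined in 4 RNA-seq libraries from organoids of mouse prostate epithelium, 2 Ezh2 null and 2 control, out of 15 samples in the series. Genes were taken if their RPKM (reads scaled to gene length and library size) averaged 1 or more across the 8 libraries of that deposited table, which kept 11338 of the 21886 genes listed. Both groups came from 3-month-old C57BL/6 mice and shared 1 further engineered heterozygous deletion, which all 8 libraries of the table carried. The Ezh2 null cells lacked Ezh2 as well (Ezh2PC-/-), and the control cells had the shared deletion alone. The other 4 libraries of the table lacked Setd2 together with Ezh2 (double null, Setd2PC-/-;Ezh2PC-/-) or Setd2 alone (Setd2 null, Setd2PC-/-), each in 2 libraries. They shared the variance estimate, and served to ask where the Ezh2 effect differed with Setd2 absent. Each library was an equal-mass pool of RNA from 3 biological replicates, so p-values measure the spread between pools and not between animals. Which promoter drives the deletions is not given in the sources used here, and since both groups carry the shared deletion, neither stands for a normal prostate.

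Ezh2 encodes the methyltransferase of Polycomb repressive complex 2 (PRC2), which places methyl groups on lysine 27 of histone H3 and holds developmental and lineage genes silent. The mark is read by Polycomb repressive complex 1, and genes freed from it may be transcribed where a matching activator is present. In the prostate, the epithelium is built of secretory luminal cells and keratin-rich basal cells, and high EZH2 has long been linked to aggressive prostate cancer.

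The sequences below are promoters of genes described further on, printed from RefSeq (GRCm38.p6, the same build as the mm10 coordinates of the files) as 250 bases before to 50 bases after the annotated start, 5′ to 3′ on the strand of the gene. The genes and the letters marked in each were picked by hand from genes that changed. Their matches therefore do not measure how common a motif is among changed genes. Mmp13, Mmp10 and Mmp3 encode matrix metalloproteinases, lie together on chromosome 9 and fell in Ezh2 null cells. Capitals mark the AP-1 motif TGANTCA, searched on both strands, which is present in 7.8% of the 32851 promoters of that table. The match begins 35 bases before the start in Mmp13, 63 bases before it in Mmp10 and 46 bases before it in Mmp3.
Mmp13 (chr9:7272264-7272563, plus strand): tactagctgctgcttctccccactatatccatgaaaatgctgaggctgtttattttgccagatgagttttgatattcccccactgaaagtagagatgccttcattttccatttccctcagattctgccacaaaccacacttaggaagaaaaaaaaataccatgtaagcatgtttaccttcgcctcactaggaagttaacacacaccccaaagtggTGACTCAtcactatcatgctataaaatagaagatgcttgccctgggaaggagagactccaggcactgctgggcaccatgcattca
Mmp10 (chr9:7502092-7502391, plus strand): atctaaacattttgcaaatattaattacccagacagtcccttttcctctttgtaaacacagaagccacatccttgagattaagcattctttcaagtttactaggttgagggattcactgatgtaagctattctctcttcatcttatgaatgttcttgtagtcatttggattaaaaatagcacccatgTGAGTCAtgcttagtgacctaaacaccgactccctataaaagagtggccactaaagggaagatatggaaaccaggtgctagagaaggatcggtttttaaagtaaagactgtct
Mmp3 (chr9:7445572-7445871, plus strand): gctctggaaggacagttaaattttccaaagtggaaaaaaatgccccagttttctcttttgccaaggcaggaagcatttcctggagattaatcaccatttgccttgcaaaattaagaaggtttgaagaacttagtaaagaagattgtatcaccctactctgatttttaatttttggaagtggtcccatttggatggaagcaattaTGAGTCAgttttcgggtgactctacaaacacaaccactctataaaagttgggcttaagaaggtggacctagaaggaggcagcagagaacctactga

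Ifit1, Ifit3 and Rsad2 are interferon-stimulated genes that fell as well. Capitals mark the core of the interferon-stimulated response element on either strand (GAAA, a pair of any bases, GAAA), which 3.4% of the promoters in the table hold. Ifit1 and Ifit3 carry 2 matches each and Rsad2 carries 1. The Mmp13 window also holds this element, and the Ifit3 and Rsad2 windows also hold the AP-1 motif, left in lower case there.
Ifit1 (chr19:34640639-34640938, plus strand): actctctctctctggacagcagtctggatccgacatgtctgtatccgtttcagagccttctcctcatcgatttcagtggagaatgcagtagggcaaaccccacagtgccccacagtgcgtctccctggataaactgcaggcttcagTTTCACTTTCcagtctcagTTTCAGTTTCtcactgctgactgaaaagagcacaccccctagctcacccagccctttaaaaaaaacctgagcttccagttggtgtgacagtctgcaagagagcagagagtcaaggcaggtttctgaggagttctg
Ifit3 (chr19:34583279-34583578, plus strand): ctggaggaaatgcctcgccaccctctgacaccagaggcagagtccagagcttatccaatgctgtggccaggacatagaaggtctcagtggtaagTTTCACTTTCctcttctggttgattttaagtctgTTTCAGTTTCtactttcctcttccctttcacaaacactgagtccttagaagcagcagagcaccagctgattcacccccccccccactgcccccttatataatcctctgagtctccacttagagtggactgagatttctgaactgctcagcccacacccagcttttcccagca
Rsad2 (chr12:26456403-26456702, minus strand): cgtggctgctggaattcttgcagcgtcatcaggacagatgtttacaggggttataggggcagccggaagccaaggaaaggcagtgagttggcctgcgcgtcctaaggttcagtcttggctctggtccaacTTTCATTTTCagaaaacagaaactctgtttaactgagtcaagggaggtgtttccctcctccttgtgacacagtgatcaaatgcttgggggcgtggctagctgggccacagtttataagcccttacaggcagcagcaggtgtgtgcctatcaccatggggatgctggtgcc

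Crisp1 and Hoxb8 rose in Ezh2 null cells and differ in the CpG content of their promoters, with CG in capitals. Crisp1 has 2 CpG dinucleotides in its window and Hoxb8 has 13, beside a median of 7 over the promoters of the table. A match to any of these letters is a description of the sequence and not a sign that a factor binds there.
Crisp1 (chr17:40319158-40319457, minus strand): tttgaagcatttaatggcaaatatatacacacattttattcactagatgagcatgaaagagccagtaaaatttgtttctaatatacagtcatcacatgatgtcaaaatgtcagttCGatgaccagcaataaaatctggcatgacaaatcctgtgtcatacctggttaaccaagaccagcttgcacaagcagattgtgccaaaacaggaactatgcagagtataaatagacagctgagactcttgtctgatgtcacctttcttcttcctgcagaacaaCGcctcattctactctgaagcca
Hoxb8 (chr11:96281655-96281954, plus strand): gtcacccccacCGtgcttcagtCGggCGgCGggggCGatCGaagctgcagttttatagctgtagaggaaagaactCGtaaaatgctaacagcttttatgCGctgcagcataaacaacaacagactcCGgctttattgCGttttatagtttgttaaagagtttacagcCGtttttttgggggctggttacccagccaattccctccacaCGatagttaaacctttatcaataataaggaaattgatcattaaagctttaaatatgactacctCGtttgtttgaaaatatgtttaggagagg

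Reads on listed genes, recovered from the RPKM values, numbered 54230805 and 46915669 in Ezh2 null cells, against 29686053 and 29789199 in control cells, so depth moved with genotype. Genes above 0 numbered 16209 and 16226 in the Ezh2 null libraries and 15083 and 15041 in the control libraries. The first principal component of the 8 libraries held 81.2% of the variance and separated them by Ezh2 genotype. The second component (6.9%) set library 1 of Ezh2 null and of double null (20.99 and 19.62) apart from library 2 of each (−20.63 and −21.29), with the control libraries at 1.424 and −2.241. The median absolute log2 difference between the 2 libraries was 0.175 in Ezh2 null and 0.11 in control. In Ezh2 null, 168 of the 11338 genes were at least 2-fold higher in library 1 than in library 2 (on log2(RPKM + 1)), and 5 were higher in library 2. Between the control libraries 6 genes differed by that much in each direction. Of the 168 genes, 83.9% have a span that overlaps another listed gene, as do 19.0% of all genes tested, and 159 were also at least 2-fold higher in library 1 of double null. The UDP-glucuronosyltransferase genes Ugt1a9 and Ugt1a10, which share their last exons, were at 42.4 and 42.1 RPKM in Ezh2 null library 1 and listed at 0 in Ezh2 null library 2 and both control libraries. Of the 168 genes, 4 were called against control, beside 56.6% of all genes tested. They were chosen for a wide gap between the Ezh2 null libraries, which enters the spread used by the test, so few could pass. The count of 4 therefore does not show how far such gaps reach the other calls. With every overlapping gene left out, 5316 of 9189 genes were called (57.9%).

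**Figure D1:**
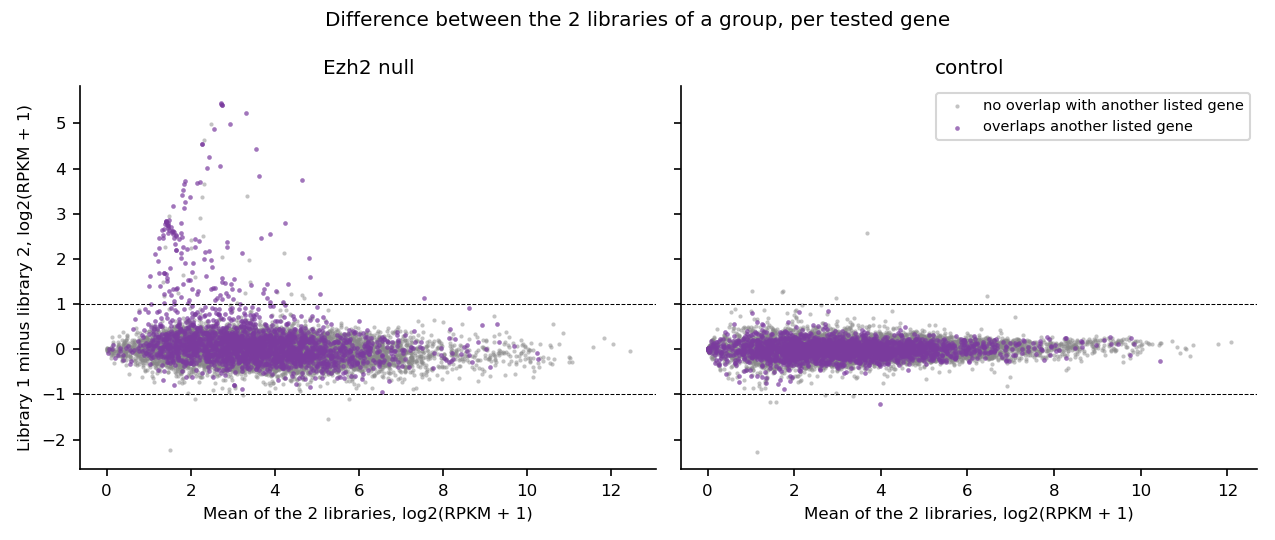
Difference between library 1 and library 2 of each group in log2(RPKM + 1) against their mean, 1 point per tested gene (Ezh2 null left, control right), with genes that overlap another listed gene in purple and dashed lines at a 2-fold difference. The Ezh2 null panel has 168 genes above the upper line and the control panel has 6.

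The targeted gene was read first. Ezh2 (Entrez 14056, minus strand of chromosome 6, 47530274 to 47595340) was at 13.8 and 11.6 RPKM in Ezh2 null cells, against 19.4 and 20.8 RPKM in control cells. Both Ezh2 null libraries were below both control libraries, and the fall passed the test (log2 fold change −0.63 ± 0.14, limma adjusted p = 0.00414). The table has 1 value for the whole gene, so a transcript without the deleted part would still add to it, and this level does not measure how complete the deletion was. Setd2 was at 14.6 and 11.6 RPKM in Ezh2 null cells, against 16.98 and 16.1 RPKM in control cells. It was lower in both Ezh2 null libraries but the test was not passed (log2 fold change −0.32 ± 0.15, limma adjusted p = 0.0872), and it did pass without Ezh2 null library 1 or after quantile or median-ratio scaling. Among the other PRC2 members, Ezh1, the second methyltransferase, fell (log2 fold change −0.7 ± 0.12) and the accessory subunit genes Mtf2 and Phf19 moved in opposite ways (log2 fold change −0.78 ± 0.15 and log2 fold change 0.99 ± 0.14). The core subunit gene Eed was at 18.97 and 19.2 RPKM in Ezh2 null against 16.8 and 16.6 RPKM in control cells, which did not pass (limma; log2 fold change 0.19 ± 0.11, limma adjusted p = 0.177).

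Gene calls covered much of the transcriptome. At a limma adjusted p under 0.05, 6416 of 11338 genes differed (56.6%), of which 4096 were higher in Ezh2 null cells (36.1% of those tested) and 2320 were lower (20.5%). These shares are the background for every count below. Quantile normalization turned that split into 3177 higher and 3158 lower; the median log2 fold change of all genes is 0.18 as deposited and 0.01 after it. Changes of at least 2-fold were found in 1368 genes higher (12.1%) and 845 lower (7.45%). At 16-fold or more there were 42 higher and 28 lower. Each log2 fold change, given with its SE, was taken on log2(RPKM + 1), which understates the change of low genes. A gene said to have risen or fallen passed the limma test.

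The 15 highest fold changes included genes of several kinds. Crisp1, which encodes a cysteine-rich secretory protein known from the epididymis, was at 429 and 289.5 RPKM in Ezh2 null cells and listed at 0 in both control libraries. Ltf, which encodes the iron-binding milk and seminal protein lactoferrin, was at 1053 and 1042 RPKM in Ezh2 null cells, against 7.64 and 7.08 RPKM in control cells (log2 fold change 6.97 ± 0.16, limma adjusted p = 6.02e-09). Cdo1, the enzyme that oxidises cysteine on the way to taurine, was at 254 and 219.7 RPKM in Ezh2 null cells, against 0.961 and 0.4696 RPKM in control cells (log2 fold change 7.13 ± 0.18, limma adjusted p = 6.02e-09). In each of these genes both Ezh2 null libraries were far above both control libraries, and Crisp1 was listed at 0 in the controls, so no fold is given. Sbp, which encodes spermine-binding protein, a major secretion of the ventral prostate, was at 49.01 and 63.8 RPKM in Ezh2 null cells, against 0.157 and 0 RPKM in control cells. Abcb5, which encodes a drug efflux transporter, was at 72.2 and 63.9 RPKM in Ezh2 null cells, against 0.255 and 0.321 RPKM in control cells (log2 fold change 5.74 ± 0.14), and Pigr, the receptor that carries polymeric immunoglobulins across epithelium, at 196 and 212 RPKM in Ezh2 null cells, against 3.02 and 5.76 RPKM in control cells (log2 fold change 5.3 ± 0.25). Also among the 15 highest were Defb6, Defb50, Spink8, Lrg1, Glb1l2, Wfdc15b, Ly6f and Pate4, and the rule left out any gene whose groups overlap. Over all genes tested, both Ezh2 null libraries were above both control libraries in 50.9% and below them in 30.6%.

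Among the 15 lowest fold changes, Mmp9, which encodes gelatinase B, was at 0.201 and 0.3403 RPKM in Ezh2 null cells, against 274 and 366 RPKM in control cells (log2 fold change −7.97 ± 0.29, limma adjusted p = 2.18e-07). Tnc, the gene of the matrix glycoprotein tenascin C, was at 3.31 and 3.47 RPKM in Ezh2 null cells, against 316 and 309.8 RPKM in control cells (log2 fold change −6.16 ± 0.14, limma adjusted p = 6.02e-09). Fn1, which encodes fibronectin, was at 14.4 and 17.1 RPKM in Ezh2 null cells, against 627 and 642 RPKM in control cells (log2 fold change −5.25 ± 0.24, limma adjusted p = 1.92e-07). Both Ezh2 null libraries were far below both control libraries for each of them. Here too the rule left out any gene whose groups overlap. Cldn6, a claudin of embryonic epithelium, was at 0.142 and 0.193 RPKM in Ezh2 null cells, against 43.3 and 53.3 RPKM in control cells (log2 fold change −5.39 ± 0.14), and Inhba, which encodes the activin A subunit, at 0.904 and 1.34 RPKM in Ezh2 null cells, against 52.2 and 46.96 RPKM in control cells (log2 fold change −4.58 ± 0.16). Antxr2, a receptor for basement membrane proteins, was at 4.86 and 4.89 RPKM in Ezh2 null cells, against 179.6 and 163 RPKM in control cells (log2 fold change −4.87 ± 0.11). Also among the 15 lowest were Mmp10, Mmp13, Tnnt2, Coro6, Padi2, Ifi202b, Cxcl3 and Col8a1. Ifi202b has a near-identical copy in the genome, so its value depends on how shared reads were divided and is uncertain.

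**Figure D2:**
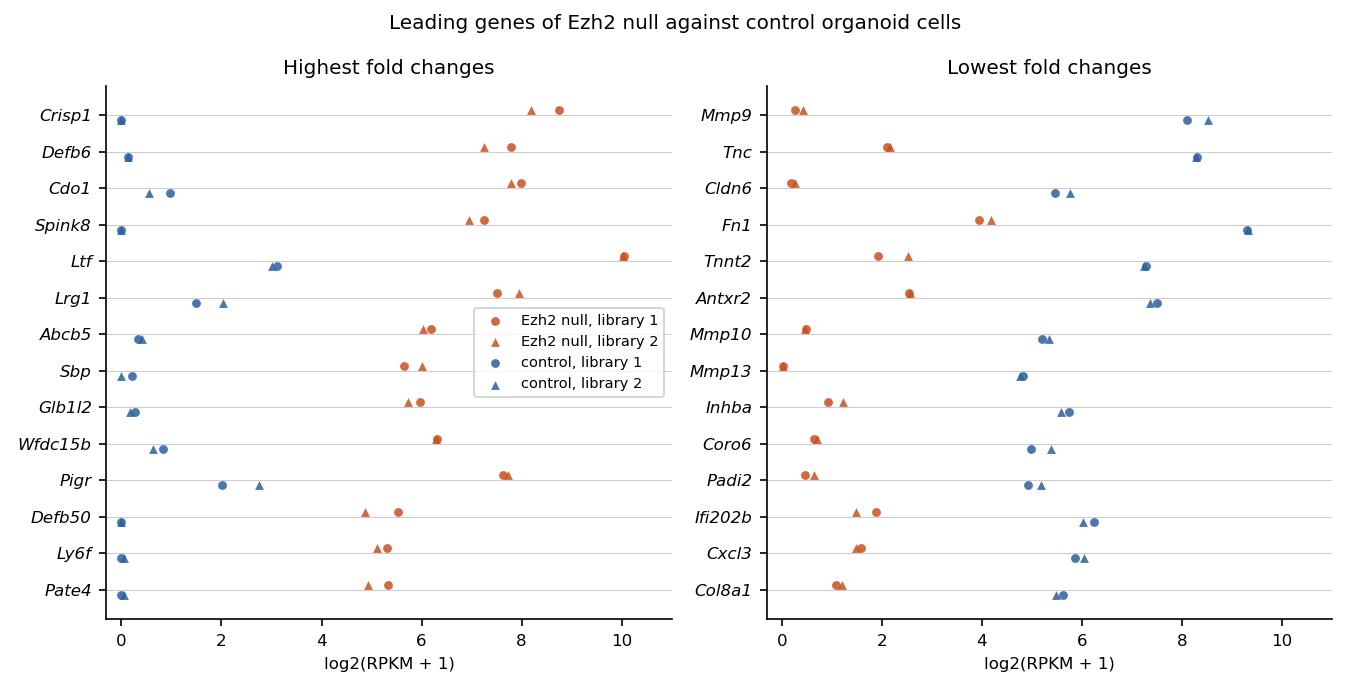
Level of the genes named from the 15 highest (left) and the 15 lowest (right) fold changes, as log2(RPKM + 1), for each Ezh2 null library (orange) and each control library (blue). Genes whose groups overlap were left out by the rule, so no Ezh2 null point lies among the control points in any row. Crisp1, Spink8 and Defb50 are at 0 in both controls.

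Genes on in 1 group and silent in the other were counted next. At 5 RPKM or more in both Ezh2 null libraries and 0 in both controls there were 16 genes, and 0 genes were the other way round. Among them Spink8, a protease inhibitor, was at 150.05 and 122 RPKM in Ezh2 null cells, Odam, first known from the enamel organ, at 25.2 and 19.1 RPKM, and Ces1d, a carboxylesterase, at 21.6 and 17.2 RPKM. With up to 3 reads per library allowed in the silent group, 26 genes were on in Ezh2 null cells and 4 in control cells. At 10 RPKM against under 0.5 RPKM there were 39 on in Ezh2 null cells and 17 on in control cells. The control libraries held fewer reads, which bears on every 0 in them, and the depth part was not tested.

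Most luminal prostate genes were higher. Of 18 tested members of the luminal list, 12 rose and 1 fell, with a median log2 fold change of 1.29. Of the 18, 1 was at 0 in both libraries of 1 group and could pass the filter only through its level in other groups. The median was 1.21 with genes at 0 held at a floor of 3 reads per library. In bulk libraries, a change in the number of cells of a type and a change in RNA per cell cannot be told apart. Hoxb13, a prostate homeobox gene, was at 68.7 and 88.4 RPKM in Ezh2 null cells, against 19.3 and 20.3 RPKM in control cells (log2 fold change 1.93 ± 0.16). Tmprss2, an androgen-regulated protease gene, was at 96.6 and 103 RPKM in Ezh2 null cells, against 25.8 and 29.1 RPKM in control cells (log2 fold change 1.82 ± 0.16). Agr2, which helps fold secreted mucins, was at 83.8 and 72.6 RPKM in Ezh2 null cells, against 2.301 and 4.45 RPKM in control cells (log2 fold change 4.22 ± 0.24). The luminal keratin gene Krt8 did not pass (819 and 905 RPKM in Ezh2 null cells, against 1029 and 975 RPKM in control cells; log2 fold change −0.22 ± 0.17, limma adjusted p = 0.3), nor did the pioneer factor gene Foxa1 (78.98 and 99.01 RPKM in Ezh2 null cells, against 78.2 and 89.1 RPKM in control cells; log2 fold change 0.08 ± 0.17, limma adjusted p = 0.699). Krt8 passed as lower after quantile normalization, and the sign for Foxa1 turned under both scalings and without Ezh2 null library 2 or control library 1. Of the 27 tested androgen response genes, 15 rose and 8 fell, and 1 was at 0 in both libraries of 1 group. Fkbp5 was at 136 and 142 RPKM in Ezh2 null cells, against 37.99 and 40.5 RPKM in control cells (log2 fold change 1.8 ± 0.12), while Ndrg1 was at 46.98 and 42.7 RPKM in Ezh2 null cells, against 300.4 and 274 RPKM in control cells (log2 fold change −2.65 ± 0.13), so known androgen targets moved both ways.

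Among secreted reproductive tract proteins, 16 of 18 tested members rose and 1 fell, with a median of 2.59, which is the same with genes at 0 held at a floor of 3 reads per library. Pate4, a seminal vesicle and prostate secretion, was at 39.3 and 29.5 RPKM in Ezh2 null cells, against 0 and 0.0323 RPKM in control cells. Azgp1, which encodes zinc-alpha-2-glycoprotein, was at 6.96 and 6.86 RPKM in Ezh2 null cells, against 0.201 and 0.1999 RPKM in control cells (log2 fold change 2.72 ± 0.12), and Pbsn, which encodes probasin, at 2.19 and 2.47 RPKM in Ezh2 null cells and listed at 0 in both control libraries. The seminal vesicle gene Svs4 was at 8.54 and 5.998 RPKM in Ezh2 null cells and listed at 0 in both control libraries. Lcn2, an iron-withholding lipocalin, was at 3113 and 2985 RPKM in Ezh2 null cells, against 561 and 553 RPKM in control cells (log2 fold change 2.45 ± 0.27). Of the 33 genes on the list, 18 reached the filter, and 7 of these were at 0 in both control libraries. Those 7 could pass only through their level in other groups. The 17 calls were 9 at a mean of 5 RPKM or more.

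Host defence and mucosal genes followed. Of 31 antimicrobial and acute phase genes 21 were tested, 13 rose and 6 fell (11 called in all at a mean of 5 RPKM or more). Of the 21, 2 were at 0 in both libraries of 1 group. Defb1, a beta-defensin gene, was at 122 and 87.1 RPKM in Ezh2 null cells, against 3.89 and 3.52 RPKM in control cells (log2 fold change 4.47 ± 0.24) and Saa3, a serum amyloid gene, at 21.7 and 27.3 RPKM in Ezh2 null cells, against 0 and 0.124 RPKM in control cells (log2 fold change 4.58 ± 0.17). Complement C3 went the other way, at 38.01 and 38.7 RPKM in Ezh2 null cells, against 117 and 136 RPKM in control cells (log2 fold change −1.69 ± 0.25). The trefoil factor and mucin list had 22 members, of which 10 passed the filter, 9 rose and 0 fell. A gene silent in control cells could pass only through its level in another group. The 9 calls were 4 at a mean of 5 RPKM or more. Spdef, an ETS factor of secretory cells, was at 11.4 and 14.9 RPKM in Ezh2 null cells, against 0.355 and 0.497 RPKM in control cells (log2 fold change 3.3 ± 0.16), and Clca1, which shapes mucus, at 155 and 155 RPKM in Ezh2 null cells, against 21.1 and 23.6 RPKM in control cells (log2 fold change 2.74 ± 0.18). Transport genes of secretory epithelium also rose in 20 of 26 tested, with 4 lower (14 called in all at a mean of 5 RPKM or more). Of the 26, 1 was at 0 in both libraries of 1 group. The water channels Aqp3 and Aqp5 were at 51.96 and 68.3 RPKM in Ezh2 null against 1.198 and 1.51 RPKM in control cells and at 11.8 and 13.5 RPKM in Ezh2 null against 0.0213 and 0.127 RPKM in control cells (log2 fold change 4.69 ± 0.17 and log2 fold change 3.66 ± 0.14). Car9, a carbonic anhydrase known as a hypoxia target, fell (7.42 and 6.85 RPKM in Ezh2 null cells, against 129 and 129.5 RPKM in control cells; log2 fold change −4.0 ± 0.13).

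Keratins did not move as 1 group. Of 20 tested keratin genes 11 rose and 3 fell, and of 17 tested basal prostate genes 6 rose and 7 fell. The basal keratin genes Krt5 and Krt15 rose (1108 and 1358 RPKM in Ezh2 null against 543 and 551 RPKM in control cells, and 1974 and 2386 RPKM in Ezh2 null against 805 and 921 RPKM in control cells; log2 fold change 1.16 ± 0.17 and log2 fold change 1.33 ± 0.17), while Krt17, a keratin of wounded and reactive epithelium, fell (87.8 and 127 RPKM in Ezh2 null cells, against 523 and 486 RPKM in control cells; log2 fold change −2.24 ± 0.2). Krt14 did not pass (407 and 591 RPKM in Ezh2 null cells, against 434 and 373 RPKM in control cells; log2 fold change 0.28 ± 0.26, limma adjusted p = 0.373). The basal master factor gene Trp63 did not pass either (18.3 and 17.5 RPKM in Ezh2 null cells, against 21.3 and 21.3 RPKM in control cells; log2 fold change −0.24 ± 0.11, limma adjusted p = 0.0994), and passed as lower after quantile or median-ratio scaling and with the replicate block. Krt4, a mucosal keratin, was at 988 and 1193 RPKM in Ezh2 null cells, against 201 and 205 RPKM in control cells (log2 fold change 2.41 ± 0.22) and Krt13 at 116 and 162 RPKM in Ezh2 null cells, against 9.202 and 10.3 RPKM in control cells (log2 fold change 3.68 ± 0.26). Krt10, a keratin of the differentiated epidermis, was at 25.3 and 36.7 RPKM in Ezh2 null cells, against 1.02 and 0.859 RPKM in control cells (log2 fold change 4.02 ± 0.19). Of 19 tested genes of the cornified envelope, 13 rose and 1 fell, among them Krtdap (16.3 and 26.5 RPKM in Ezh2 null against 0.651 and 0.432 RPKM in control cells; log2 fold change 3.83 ± 0.23) and Ivl (22.8 and 22.6 RPKM in Ezh2 null against 6.12 and 7.25 RPKM in control cells; log2 fold change 1.63 ± 0.2). The 14 cornified envelope calls were 9 at a mean of 5 RPKM or more. Of the 19 tested, 2 were at 0 in both libraries of 1 group. Members of the Sprr2 family are near-identical to each other and their single values are uncertain.

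Genes of matrix and of adhesion to it were mostly lower. Of 23 tested genes of interstitial matrix and integrins, 19 fell and 1 rose (median −1.8). Itga2, the collagen-binding integrin subunit, was at 20.1 and 18.1 RPKM in Ezh2 null cells, against 256 and 255 RPKM in control cells (log2 fold change −3.67 ± 0.13). Itgav and Itga5, subunits of fibronectin and RGD receptors, fell too (log2 fold change −1.81 ± 0.14 and log2 fold change −1.98 ± 0.25). Among laminin and hemidesmosome genes 12 of 17 fell and 2 rose. The laminin chain gene Lama3 was at 11.3 and 10.8 RPKM in Ezh2 null cells, against 215 and 198 RPKM in control cells (log2 fold change −4.11 ± 0.12) and Lamb3 at 39.8 and 44.2 RPKM in Ezh2 null cells, against 353 and 351 RPKM in control cells (log2 fold change −3.04 ± 0.14). The laminin receptor genes Itga6 and Itgb4 fell less (log2 fold change −0.96 ± 0.13 and log2 fold change −1.17 ± 0.2); the sizes were not tested against each other.

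Matrix proteases and their inhibitors gave 18 lower and 4 higher of 27. Mmp13, Mmp3 and Mmp10 lie next to each other among tested genes on chromosome 9 (7272514 to 7510242), and their promoters are printed above. Mmp13 was at 0.0134 and 0.0157 RPKM in Ezh2 null cells, against 27.2 and 26.1 RPKM in control cells (log2 fold change −4.77 ± 0.11), Mmp3 at 3.83 and 3.92 RPKM in Ezh2 null cells, against 20.98 and 23.2 RPKM in control cells (log2 fold change −2.24 ± 0.32) and Mmp10 at 0.394 and 0.388 RPKM in Ezh2 null cells, against 36.1 and 39.6 RPKM in control cells (log2 fold change −4.8 ± 0.19). Mmp13 and Mmp10 are among the 15 lowest, where the rule required libraries that do not overlap. Mmp3 was also lower in each Ezh2 null library than in each control library, as were 30.6% of all genes tested. Plau, which encodes urokinase, was at 14.5 and 14.6 RPKM in Ezh2 null cells, against 227 and 222 RPKM in control cells (log2 fold change −3.86 ± 0.13). Mmp7, the epithelial matrilysin, rose (1558 and 1462 RPKM in Ezh2 null cells, against 952 and 975 RPKM in control cells; log2 fold change 0.65 ± 0.14), a call lost after quantile normalization.

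Cytoskeletal and signalling genes tied to adhesion were lower as well. In the actin list 28 of 42 fell and 2 rose. Msn, which links actin to the membrane, was at 41.9 and 40.96 RPKM in Ezh2 null cells, against 330.2 and 324 RPKM in control cells (log2 fold change −2.95 ± 0.12), and Tmsb10, which binds free actin, at 37.1 and 33.2 RPKM in Ezh2 null cells, against 295 and 300.1 RPKM in control cells (log2 fold change −3.05 ± 0.12). Known YAP and TEAD targets gave 9 lower and 1 higher of 18, with Cyr61 at 13.2 and 13.1 RPKM in Ezh2 null cells, against 177 and 172 RPKM in control cells (log2 fold change −3.63 ± 0.12) and Ctgf at 48.4 and 41.03 RPKM in Ezh2 null cells, against 339 and 311 RPKM in control cells (log2 fold change −2.84 ± 0.17). For TGF-beta and activin signalling the counts were 13 lower and 4 higher of 26. The ligand gene Tgfb1 fell (log2 fold change −1.45 ± 0.23), as did the feedback genes Smad7, Skil and Pmepa1 (log2 fold change −2.17 ± 0.21, log2 fold change −2.72 ± 0.14 and log2 fold change −3.75 ± 0.16). Vim, which encodes the mesenchymal filament vimentin, was at 3.904 and 4.22 RPKM in Ezh2 null cells, against 83.3 and 74.7 RPKM in control cells (log2 fold change −3.98 ± 0.12), yet Twist1, a mesenchymal regulator, rose (3.61 and 6.71 RPKM in Ezh2 null cells, against 0 and 0.0202 RPKM in control cells; log2 fold change 2.56 ± 0.22). The mesenchymal list as a whole had 6 genes higher and 6 lower of 17, of which 1 rose and 6 fell at least 2-fold.

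**Figure D3:**
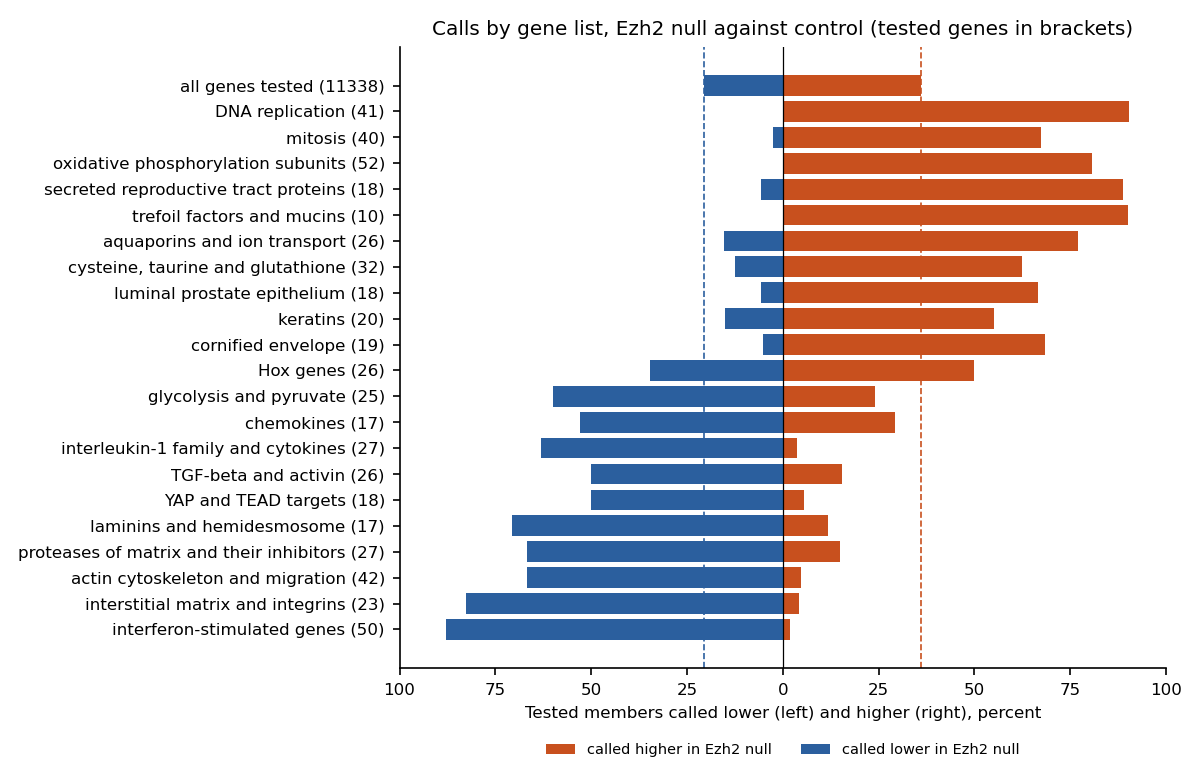
Percent of tested members called lower (left, blue) and higher (right, orange) in Ezh2 null against control for 21 of the 56 gene lists and for all 11338 genes tested, with dashed lines at the 20.5% lower and 36.1% higher of all genes. DNA replication has 37 of 41 members higher and the interferon-stimulated genes 44 of 50 lower.

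Interferon-stimulated genes were lower as a group. Of 50 tested, 44 fell and 1 rose, with a median log2 fold change of −1.48. Ifit1 and Ifit3, which bind viral RNA or its partners, were at 1.53 and 1.02 RPKM in Ezh2 null cells, against 18.8 and 16.9 RPKM in control cells (log2 fold change −3.06 ± 0.19) and at 0.898 and 0.797 RPKM in Ezh2 null against 10.3 and 12.2 RPKM in control cells (log2 fold change −2.72 ± 0.26). Rsad2, which encodes the antiviral enzyme viperin, was at 0.989 and 0.789 RPKM in Ezh2 null cells, against 9.55 and 8.32 RPKM in control cells (log2 fold change −2.39 ± 0.14). Oasl2 and Usp18 were at 5.9998 and 5.51 RPKM in Ezh2 null against 63.6 and 66.9 RPKM in control cells and at 4.997 and 5.13 RPKM in Ezh2 null against 50.2 and 47.3 RPKM in control cells. Irf7, the factor that amplifies type I interferon, was at 6.61 and 7.24 RPKM in Ezh2 null cells, against 49.1 and 61.4 RPKM in control cells (log2 fold change −2.82 ± 0.36). Isg15 was at 7.76 and 0.862 RPKM in Ezh2 null cells, against 10.8 and 11.5 RPKM in control cells, so that its 2 Ezh2 null libraries disagreed, and its difference missed the threshold (log2 fold change −1.59 ± 1.16, limma adjusted p = 0.308). In chromosome order, 5 neighbours of the PYHIN family, Aim2, Ifi204, Mnda, Ifi202b and Ifi205, fell at least 2-fold on chromosome 1 (173349246 to 174031755), the longest run of neighbouring tested genes that fell. These are close paralogs whose single values are uncertain.

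Chemokines and cytokines were lower in most tested members. Of 17 chemokine genes 9 fell and 5 rose. The neutrophil attractants Cxcl1 and Cxcl5 were at 20.5 and 18.9 RPKM in Ezh2 null against 182 and 161 RPKM in control cells (log2 fold change −3.05 ± 0.18) and at 22.3 and 19.6 RPKM in Ezh2 null against 208 and 239.9 RPKM in control cells (log2 fold change −3.36 ± 0.14). The mucosal chemokines Ccl28 and Cxcl17 rose (7.74 and 6.09 RPKM in Ezh2 null against 0.0376 and 0.168 RPKM in control cells, and 17.5 and 19.3 RPKM in Ezh2 null against 0.174 and 0.692 RPKM in control cells; log2 fold change 2.84 ± 0.16 and log2 fold change 3.78 ± 0.18). In the interleukin-1 family and cytokine list 17 of 27 fell and 1 rose. Il1a, an alarmin of epithelia, was at 1.32 and 1.58 RPKM in Ezh2 null cells, against 40.4 and 33.002 RPKM in control cells (log2 fold change −3.94 ± 0.13), Csf2, which encodes GM-CSF, at 0.0771 and 0.2405 RPKM in Ezh2 null cells, against 24.3 and 17.97 RPKM in control cells (log2 fold change −4.24 ± 0.16), and Tslp at 3.99 and 2.78 RPKM in Ezh2 null cells, against 39.3 and 55.4 RPKM in control cells (log2 fold change −3.46 ± 0.21). Of the 2 prostaglandin synthases, Ptgs2 fell (40.7 and 32.2 RPKM in Ezh2 null cells, against 449 and 413 RPKM in control cells; log2 fold change −3.54 ± 0.16) and Ptgs1 was the gene that rose (28.4 and 26.8 RPKM in Ezh2 null cells, against 5.74 and 4.14 RPKM in control cells; log2 fold change 2.28 ± 0.16).

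Cell cycle genes were higher. All 41 DNA replication genes were tested, 37 rose and 0 fell, with a median of 1.19. The replicative helicase genes Mcm2 and Mcm5 were at 35.4 and 44.3 RPKM in Ezh2 null against 8.56 and 8.26 RPKM in control cells (log2 fold change 2.11 ± 0.17) and at 34.01 and 38.04 RPKM in Ezh2 null against 7.97 and 8.13 RPKM in control cells (log2 fold change 2.03 ± 0.16). Of 40 mitosis genes 27 rose and 1 fell. Mki67 was at 45.5 and 35.4 RPKM in Ezh2 null cells, against 20.6 and 19.2 RPKM in control cells (log2 fold change 0.98 ± 0.2) and Cdc20, an activator of the anaphase complex, at 54.5 and 67.7 RPKM in Ezh2 null cells, against 15.8 and 15.6 RPKM in control cells (log2 fold change 1.89 ± 0.16). Inhibitors moved in both directions. Cdkn2a, a textbook Polycomb target at the Ink4a/Arf locus, was at 46.9 and 81.4 RPKM in Ezh2 null cells, against 11.9 and 11.3 RPKM in control cells (log2 fold change 2.32 ± 0.28), while its neighbour Cdkn2b was at 17.8 and 25.01 RPKM in Ezh2 null cells, against 49.9 and 43.9 RPKM in control cells (log2 fold change −1.11 ± 0.23). Cdkn2c rose (18.4 and 25.2 RPKM in Ezh2 null cells, against 2.87 and 3.09 RPKM in control cells; log2 fold change 2.5 ± 0.16), and Cdkn1b fell (log2 fold change −0.62 ± 0.12). The cyclin gene Ccnd2 was at 154 and 151 RPKM in Ezh2 null cells, against 49.3 and 43.7 RPKM in control cells (log2 fold change 1.69 ± 0.26).

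With Setd2 intact, metabolic lists split between respiration and glycolysis. All 52 subunit genes of oxidative phosphorylation were tested, of which 42 rose and 0 fell (median 0.72). Ndufa9, of complex I, was at 107 and 108 RPKM in Ezh2 null cells, against 35.8 and 30.6 RPKM in control cells (log2 fold change 1.67 ± 0.15). The list's summed level was 6490 and 7160 RPKM in Ezh2 null cells, against 4020 and 3820 RPKM in control cells. In the glycolysis list 15 of 25 fell and 6 rose, of which 5 fell and 2 rose at least 2-fold. In double null against Setd2 null, 7 members of this list were higher and 4 lower (median −0.09). These counts come from separate tests, and the test of the difference between the backgrounds was called for 3 of the 25 members. In double null against Setd2 null, 38 of the oxidative phosphorylation genes were higher and 0 lower (median 0.62). Pfkp, a phosphofructokinase, was at 6.12 and 5.95 RPKM in Ezh2 null cells, against 31.6 and 30.3 RPKM in control cells (log2 fold change −2.18 ± 0.11), and the lactate exporter gene Slc16a3 at 11.9 and 15.3 RPKM in Ezh2 null cells, against 87.3 and 83.6 RPKM in control cells (log2 fold change −2.58 ± 0.17). The glucose transporter gene Slc2a1 fell (log2 fold change −0.85 ± 0.16), while Ldhb, the lactate dehydrogenase chain of oxidative tissue, rose (13.99 and 14.1 RPKM in Ezh2 null cells, against 5.59 and 5.54 RPKM in control cells; log2 fold change 1.2 ± 0.12). Glutathione and cysteine genes gave 20 higher and 4 lower of 32, with Gstm1 at 95.3 and 87.99 RPKM in Ezh2 null cells, against 6.59 and 6.18 RPKM in control cells (log2 fold change 3.65 ± 0.12) and Gpx3 at 42.3 and 42.3 RPKM in Ezh2 null cells, against 3.41 and 3.92 RPKM in control cells (log2 fold change 3.21 ± 0.12). Of the enzymes that make retinoic acid, Aldh1a1 was at 425 and 362 RPKM in Ezh2 null cells, against 9.03 and 11.997 RPKM in control cells (log2 fold change 5.11 ± 0.2), and Aldh1a3 at 13.7 and 15.7 RPKM in Ezh2 null cells, against 197 and 192 RPKM in control cells (log2 fold change −3.64 ± 0.12).

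Developmental transcription factor genes, many of them textbook Polycomb targets, were mostly below the filter. The list had 70 members, of which 15 passed it, 8 rose and 1 fell; a gene silent in control cells could pass only through its level in another group. The 9 calls were 29 with no filter and 4 at a mean of 5 RPKM or more. Tbx2, a T-box repressor gene, was at 64.1 and 97.4 RPKM in Ezh2 null cells, against 2.69 and 3.06 RPKM in control cells (log2 fold change 4.37 ± 0.2), and Pax2, a urogenital regulator gene, at 5.77 and 7.35 RPKM in Ezh2 null cells, against 0.1003 and 0 RPKM in control cells (log2 fold change 2.84 ± 0.14). Irx1 was at 13.6 and 20.8 RPKM in Ezh2 null cells, against 0.03200 and 0.207 RPKM in control cells (log2 fold change 4.0 ± 0.2). Msx1 stayed low, at 1.13 and 0.686 RPKM in Ezh2 null cells and listed at 0 in both control libraries, and Tbx4 was listed at 0 in all 4 libraries. Hox genes moved both ways, 13 higher and 9 lower of 26 tested. In the Hoxb cluster 9 of 9 tested genes rose, and Hoxb13 to Hoxb2 with the adjoining Atp5g1 formed the longest run of neighbouring tested genes that rose at least 2-fold (chromosome 11, 96072793 to 96354020). Hoxb8 was at 23.4 and 26.1 RPKM in Ezh2 null cells, against 0.8503 and 0.958 RPKM in control cells (log2 fold change 3.76 ± 0.12) and Hoxb2 at 8.96 and 11.8 RPKM in Ezh2 null cells, against 0.395 and 0.304 RPKM in control cells (log2 fold change 3.06 ± 0.15). In the Hoxa cluster 0 of 9 rose and 5 fell. The Hoxd cluster had 4 higher and 4 lower, with Hoxd13, Hoxd12, Hoxd11 and Hoxd10 lower and Hoxd9, Hoxd8, Hoxd4 and Hoxd3 higher. Hoxd12 was at 0.383 and 0.266 RPKM in Ezh2 null cells, against 5.35 and 4.99 RPKM in control cells and Hoxd4 at 14.8 and 16.04 RPKM in Ezh2 null cells, against 1.495 and 1.99 RPKM in control cells, named here after their values were seen. No Hoxc gene reached the filter.

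**Figure D4:**
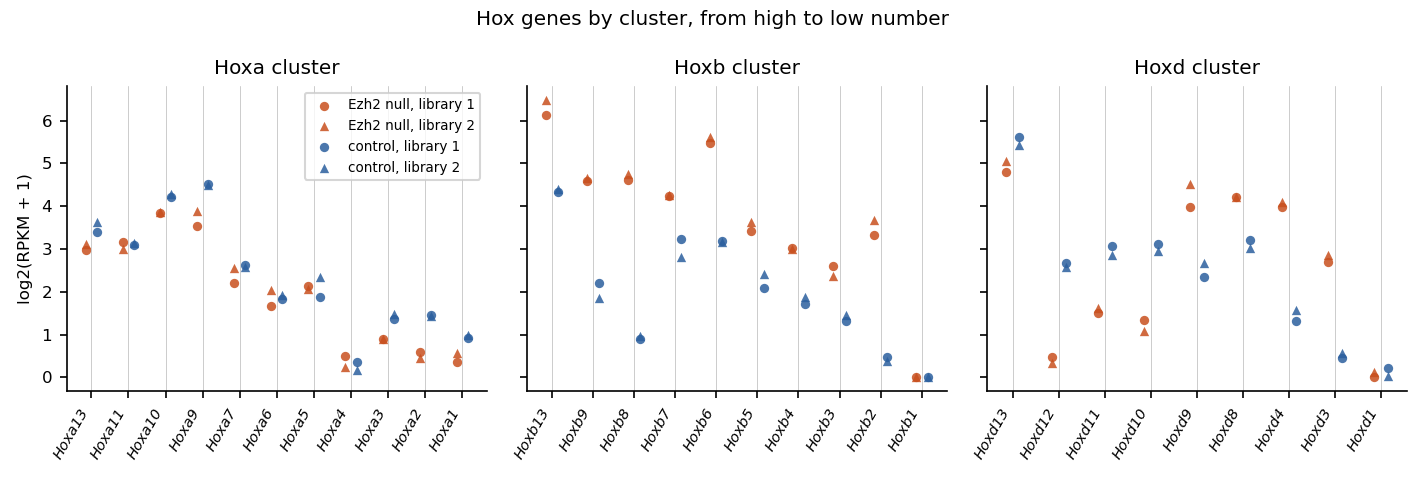
Level of Hox genes as log2(RPKM + 1) in each Ezh2 null library (orange) and each control library (blue), ordered within a cluster from high to low number. Orange points lie above blue in all 9 tested Hoxb genes, and the order turns between Hoxd10 and Hoxd9.

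Runs of 3 or more neighbouring tested genes that changed at least 2-fold in the same direction numbered 48 higher and 25 lower, and 32 and 34 after quantile normalization. Besides those named, the runs that rose included Defb1, Defb50, Defb2, Defb11, Defb35 and Defb13 on chromosome 8 (21776555 to 21948622). The runs that fell included Gbp7, Gbp3 and Gbp2, interferon-induced GTPase genes, with Pdlim5 on chromosome 3 (142239585 to 142638008). Genes in a run are often paralogs and can share reads.

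Markers of other cell types were read as a check of the label. Epithelial keratins were abundant in all 4 libraries, as given above. The 15 immune markers summed to 22.3 and 21.7 RPKM in Ezh2 null cells, against 24.8 and 26.7 RPKM in control cells, and of 5 tested 2 rose and 2 fell. The defining leukocyte gene Ptprc was at 0.0582 and 0.0465 RPKM in Ezh2 null cells and listed at 0 in both control libraries, and the T cell gene Cd3e at 0.0829 and 0.0139 RPKM in Ezh2 null cells and listed at 0 in both control libraries. The lysozyme gene Lyz2, known from myeloid cells, was at 7.69 and 8.197 RPKM in Ezh2 null cells and listed at 0 in both control libraries, the neutrophil gene Ly6g at 5.67 and 4.58 RPKM in Ezh2 null cells, against 0.247 and 0.281 RPKM in control cells, and the lysosomal macrophage gene Cd68 at 4.24 and 4.42 RPKM in Ezh2 null cells, against 21.8 and 24.6 RPKM in control cells. The 9 endothelial markers summed to 2.08 and 3.27 RPKM in Ezh2 null cells, against 0.697 and 0.669 RPKM in control cells. Their 1 tested member, Esam, rose (log2 fold change 1.21 ± 0.17), with Cdh5 and Kdr under 0.1 RPKM in all 4 libraries. The 11 neuroendocrine markers summed to 2.37 and 2.65 RPKM in Ezh2 null cells, against 7.87 and 9.39 RPKM in control cells. Of 2 tested 0 rose and 1 fell, which was Uchl1 (log2 fold change −1.97 ± 0.22), and Chga and Syp were under 0.1 RPKM throughout. Both tested members were called after quantile or median-ratio scaling and without any 1 of the double null or Setd2 null libraries. The 15 stromal markers summed to 159 and 178 RPKM in Ezh2 null cells, against 37.9 and 31.9 RPKM in control cells, and of 7 tested 6 rose and 1 fell. Gsn alone was at 90.7 and 111 RPKM in Ezh2 null cells, against 16.7 and 16.9 RPKM in control cells, Col3a1 was at 5.83 and 7.44 RPKM in Ezh2 null cells, against 0.125 and 0.0827 RPKM in control cells, and Pdgfra, Lum and Des were under 0.5 RPKM throughout. The 9 urothelial markers summed to 1130 and 1280 RPKM in Ezh2 null cells and 184 and 194 RPKM in control cells, most of it Psca (943 and 1034 RPKM in Ezh2 null cells, against 145 and 155 RPKM in control cells), a gene also known from prostate progenitors. Of 8 tested 7 rose and 1 fell, with a median of 1.94, and 1 was at 0 in both libraries of 1 group. The member that fell was the uroplakin gene Upk3a (1.204 and 1.502 RPKM in Ezh2 null cells, against 5.3995 and 6.27 RPKM in control cells), and Upk1a was among those that rose (24.5 and 32.2 RPKM in Ezh2 null cells, against 5.499 and 6.13 RPKM in control cells). All 4 tested Y-linked genes were lower, Ddx3y at 9.899 and 7.3002 RPKM in Ezh2 null cells, against 29.2 and 26.7 RPKM in control cells and Uty at 3.18 and 2.35 RPKM in Ezh2 null cells, against 6.93 and 6.29 RPKM in control cells. The calls of Kdm5d and Eif2s3y were lost without Ezh2 null library 2 or either control library. The part of stromal, immune, endothelial, neuroendocrine, urothelial or Y-linked differences in the results above was not tested.

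The same deletion was present on the Setd2 null background in libraries that share no sample with the 4 above. In double null against Setd2 null, 6241 of 11338 genes were called (55% of those tested), with 4036 higher (35.6%) and 2205 lower (19.4%). Of the 6416 calls with Setd2 intact, 5337 (83.2%) were called in the same direction there, which is 85.5% of the calls in that comparison. The 2 comparisons share 1 variance estimate, and depth moved with Ezh2 genotype in both. Same-numbered libraries of Ezh2 null and double null also deviated together (r = 0.933). The overlap is therefore not that of 2 independent experiments. The test of the difference called 294 genes (2.59%), 192 of them positive (1.69%) and 102 negative (0.9%). A positive difference means a higher fold change with Setd2 absent. Of the 294 genes, 134 rose and 109 fell with Setd2 intact. Mmp9 fell in both backgrounds (log2 fold change −7.97 in Ezh2 null against control and −7.39 in double null against Setd2 null), as did Tnc (log2 fold change −6.16 in Ezh2 null against control and −6.16 in double null against Setd2 null), with no difference called for either. Il1a fell less with Setd2 absent (log2 fold change −3.94 in Ezh2 null against control and −2.69 in double null against Setd2 null; difference 1.24 ± 0.19, limma adjusted p = 0.00785), as did Pfkp (log2 fold change −2.18 in Ezh2 null against control and −0.99 in double null against Setd2 null; difference 1.19 ± 0.16, limma adjusted p = 0.00428). So did Ndrg1 (log2 fold change −2.65 in Ezh2 null against control and −0.97 in double null against Setd2 null; difference 1.68 ± 0.18, limma adjusted p = 0.00168). For Ltf the rise was smaller with Setd2 absent (log2 fold change 6.97 in Ezh2 null against control and 5.51 in double null against Setd2 null; difference −1.46 ± 0.22, limma adjusted p = 0.00844), a call lost without control library 2. The keratin list held 7 members with a called difference and the cornified envelope list 6. The count of 294 was 157 without control library 1, 142 without control library 2 and 189 without double null library 2. Of 32 called differences named in the text, 5 kept direction and call under every alternative that tested them.

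**Figure D5:**
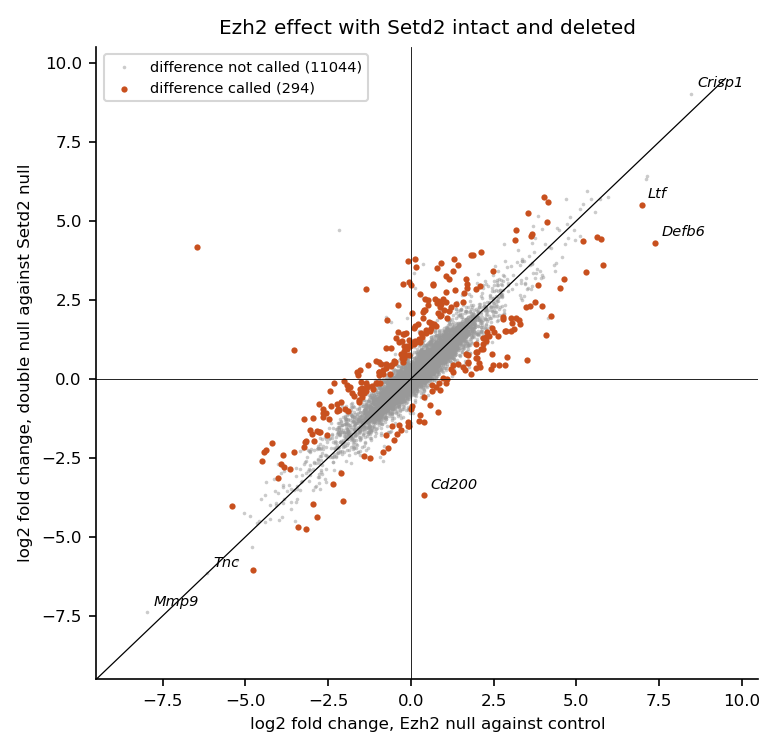
Log2 fold change in double null against Setd2 null (vertical axis) beside that in Ezh2 null against control (horizontal axis) for the 11338 genes tested, with the 294 genes whose difference was called in orange and the line of equal change in black. Crisp1, Tnc and Mmp9 lie near the line, and Cd200 lies far from it.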

How the data were processed

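RNA was extracted with TRIzol and sequenced as 150-nucleotide paired reads, per the labels' protocols. The authors deposited 1 table of RPKM per gene (mm10) for the 8 libraries. Bowtie, RSEM, BWA and SICER are named in the submitters' processing notes, without roles or versions; the strand setting of the counting is not given in the sources used here. From these values, log2(RPKM + 1) of genes that averaged 1 RPKM or more was fitted with limma 3.58.1 in R 4.3.3 (4 genotype groups, trended and robust variance, Benjamini-Hochberg over 11338 genes, two-sided, called at 0.05), without a replicate block. The fit was also run on simulated data with independent noise and few genes changed. That run cannot show how sound the calls are here, where 56.6% of genes were called and libraries deviated together. Whole reads were recovered for 99.97% of 13748 genes above 0 in every library (tolerance 0.01) and were used for depths and 1 alternative (limma-voom); the intervals of the fit cover the spread between 2 pooled libraries a group. Of 21886 symbols, 27 had turned into dates and 21653 matched an Entrez ID; 4001 genes were at 0 throughout.

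Named genes were Ezh2 and Setd2, the 15 highest and 15 lowest called fold changes whose libraries do not overlap and that reach 5 RPKM (predicted genes, pseudogenes and microRNAs left out), the key members and up to 4 other called members of each of 56 lists, up to 8 switched genes a side, and the 5 largest called differences. The genes and lists were chosen with earlier results of these data known. Lists were described by counts and medians, without a test. In every list, a gene silent in control cells could pass the filter only through its level in another group. Other scalings, filters, pseudocounts, groups, a replicate block and libraries left out were tried. Histone ChIP libraries and a second RNA experiment of the series were not analysed here. Promoters were found for 79.6% of genes at least 2-fold higher and 78.7% of those lower, under the 80% needed, so a check of promoter sequence over gene sets is void. Some items are not reported here.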

Additional observations from a re-analysis of the deposited data

Results flagged for a closer look

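The Ezh2 effect differed between the 2 Setd2 backgrounds in 294 genes by the limma test of the difference itself, given here as (double null minus Setd2 null) minus (Ezh2 null minus control) on the log2(RPKM + 1) scale. Among genes named above, the difference was positive for Ifi202b (2.14), Padi2 (1.91), Krt10 (1.73), Ndrg1 (1.68), Slc16a3 (1.5), Krt17 (1.43), Cldn6 (1.37), Il1a (1.24), Pfkp (1.19), Car9 (0.87), Aldh1a3 (0.80) and Trp63 (0.76). It was negative for Cd200 (−4.08), Defb6 (−3.06), Pigr (−1.91), Odam (−1.63), Ctgf (−1.52), Svs4 (−1.5), Ltf (−1.46), Ccl28 (−1.33), Abcb5 (−1.31), Hoxb2 (−1.31), Hoxb8 (−1.31), Mmp13 (−1.27), Lyz2 (−1.22), Ifi205 (−1.27), Glb1l2 (−1.16), Mmp7 (−1.02), Mnda (−0.99), Ly6g (−0.96), Col3a1 (−0.89) and Ly6f (−0.82). Of these 32 differences, 5 kept direction and call under every alternative that tested them. With limma-voom the difference turned and was not called for Mmp13 (0.43), Ifi205 (0.14) and Mnda (0.17). Cd200 had 1.01 and 3.49 RPKM in the 2 control libraries.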

How the results depend on the processing

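Of 142 called genes named in the text, 139 kept direction and call under every alternative that tested them. Mmp7, Kdm5d and Eif2s3y did not. Genes that averaged under 5 RPKM, such as Svs4, were not tested at the 5 RPKM filter. With calls limited to at least 2-fold, Ezh2 null against control had 2213 (1368 higher, 845 lower), double null against Setd2 null 2069 (1307 and 762), and the lists 481 members. Without 1 library at a time, calls for Ezh2 null against control were 4776 to 6713 (3064 to 4286 higher, 1712 to 2428 lower), and for the difference between backgrounds 142 to 278 (95 to 197 higher, 47 to 83 lower). That difference gave 146 calls at a mean of at least 5 RPKM (94 higher, 52 lower), 151 with limma-voom (110 and 41) and 469 with the replicate block (316 higher). Same-numbered libraries of Ezh2 null and control had correlated deviations (r = 0.155), those of Ezh2 null and double null more so (0.933), but 2 pairs cannot establish pairing; with the replicate block 7453 genes were called (4694 higher, 2759 lower). Median-ratio scaling gave 3098 higher and 3093 lower. Switched genes numbered 9 at 10 RPKM, and with up to 3 reads allowed 26 on in Ezh2 null and 4 on in control. Foxa1, not called, had −0.01 after quantile normalization, −0.10 after median-ratio scaling, and −0.08 to 0.24 with 1 library left out. Cd200, not called, had −0.19 to 0.97 with 1 library left out. Differences between backgrounds turned with limma-voom for Ifi205 (0.14), Mmp13 (0.43) and Mnda (0.17), and 5 of 32 named kept their call wherever tested. Leaving out overlapping genes (5316 calls, 3327 higher and 1989 lower) was chosen after seeing the data. Of 935 counts of called list members under an alternative, 872 were within 1.5 times; of the others, 22 came from the 2-fold limit, 19 from the 5 RPKM filter and 7 from no filter. The causes were not tested.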

Other observations

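Signalling lists were mixed. Of 13 tested Notch genes 5 rose and 3 fell (5 called in all without control library 1), of 30 Wnt genes 10 rose and 12 fell, and of 27 AP-1 and immediate early genes 4 rose and 7 fell. Notch1, a receptor of cell fate signalling, was at 66.4 and 79.7 RPKM in Ezh2 null cells, against 21.05 and 22.8 RPKM in control cells (log2 fold change 1.69 ± 0.17), and its ligand gene Dll1 at 4.22 and 4.73 RPKM in Ezh2 null cells, against 1.43 and 1.69 RPKM in control cells (log2 fold change 1.1 ± 0.16). The ligand gene Wnt4 was at 67.5 and 78.3 RPKM in Ezh2 null cells, against 14.98 and 18.4 RPKM in control cells (log2 fold change 2.07 ± 0.15). Myc, a driver of growth and ribosome making, was at 58.2 and 61.9 RPKM in Ezh2 null cells, against 26.3 and 24.8 RPKM in control cells (log2 fold change 1.2 ± 0.14), while the AP-1 subunit gene Jun was at 38.1 and 47.4 RPKM in Ezh2 null cells, against 111 and 124 RPKM in control cells (log2 fold change −1.44 ± 0.18). Bmi1, of Polycomb repressive complex 1, was at 11.8 and 9.04 RPKM in Ezh2 null cells, against 4.64 and 4.33 RPKM in control cells (log2 fold change 1.05 ± 0.17). Of 21 tested members of that complex 9 rose and 4 fell (7 called in all without control library 1). Those counts are near the 36.1% higher and 20.5% lower of all genes tested. After quantile normalization 7 members were higher and 6 lower, and in the main fit 1 was called at 2-fold or more.

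Of the 14 tested collagen genes 3 rose and 8 fell (21 called with no filter and 5 at a mean of 5 RPKM or more), and of 18 genes of desmosomes and adherens junctions 3 rose and 10 fell. Fatty acid oxidation and peroxisome genes were higher in 17 and lower in 2 of 29 tested.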
